A study of Homo sapiens with 8 samples.

Results

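The NF-kB transcription factor genes and the genes that feed back on them were followed in MV4-11 cells, a human acute myeloid leukaemia (AML) cell line, after inhibition of the cell cycle kinases CDK4/6, of the histone demethylase LSD1, or of both. The genes were taken by symbol with no rule on their values, although earlier results of these data were known when they were chosen. They were the subunit genes NFKB1, NFKB2, REL and RELB and the inhibitor genes NFKBIA, NFKBIE and TNFAIP3. With them were the survival gene BIRC3 and the cytokine genes TNF and IL6. The genes make 10 of the 26364 gene rows of the expression table, and all 10 were tested. In all, 14151 genes were tested, which reached 1 TPM (a transcript level per gene length) or more in 2 or more libraries.

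NF-kB is a family of dimeric transcription factors held in the cytoplasm by IkB proteins until a receptor signal has an IkB degraded. In the canonical arm, dimers of RELA or REL with the product of NFKB1 are released within minutes, while in the non-canonical arm the product of NFKB2 is processed and moves to the nucleus with RELB. Many of the genes that NF-kB switches on encode its own inhibitors, so that NFKBIA, NFKBIE and TNFAIP3 mRNA is a common readout of the pathway in myeloid cells, as are BIRC3, TNF and IL6.

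All cells carried FLT3-ITD and the MLL-AF4 fusion. They received DMSO, TCP (the LSD1 inhibitor, 5 µM), palbociclib (the CDK4/6 inhibitor, 0.5 µM) or both drugs together (the combination), for 4 days by the labels, with 2 libraries in each of the 4 groups and 8 in all. The methods describe culture of the AML lines on HS-5, a human stromal cell line, and a day of palbociclib alone before the second drug was added, and whether TCP alone lasted as long as palbociclib is not settled by the sources used here. The groups are 1 cell line, and nothing says whether the 2 libraries of a group came from separate cultures, so p-values measure only the spread between these libraries, which may be technical. In RNA from a whole culture, fewer cells that express a gene and less RNA per cell cannot be told apart.

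The 6 AML cell markers PTPRC, CD33, FLT3, HOXA9, MEIS1 and SPI1 each stood at 1 TPM or more in every library, with a sum between 785 and 905 TPM. Single markers moved in opposite directions within that sum. Mean FLT3 was 235 TPM in DMSO, 82.3 TPM with palbociclib and 71.8 TPM with the combination. Mean SPI1 was 232, 437 and 467 TPM in the same order. In both palbociclib groups mean HOXA9 and MEIS1 were also below DMSO, and mean PTPRC and CD33 above it. The 16 stromal cell markers summed to between 24.5 and 62.2 TPM in 7 libraries and to 161 TPM in palbociclib replicate 2. In that library 14 of the 16 had their highest value, so it stood apart. Without COL6A1 and TAGLN, the other 14 summed to 3.85 and 13.9 TPM in DMSO and 3.65 and 11.4 TPM with TCP. They summed to 9.46 and 109 TPM with palbociclib and 15.5 and 25.8 TPM with the combination. Within each replicate the sum of these 14 was higher with palbociclib and with the combination than with DMSO or TCP. Over all 16 this did not hold in replicate 1, where palbociclib stood at 33.7 TPM and TCP at 34.7 TPM. Of the 2 left out, TAGLN had a mean of 14.9 TPM with TCP and 13.8 TPM with palbociclib. TPM have the same sum in every library and keep no trace of its depth, which is unknown here. The median gene moved by -0.04 on the log2 scale with TCP, -0.16 with palbociclib and -0.22 with both drugs, and the log2 fold changes given here can be read relative to these shifts. Levels are in TPM, which allow for gene length, and differences are log2 fold changes of TPM + 1 with their standard error (SE), which understate the change of genes with low values.

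The start sites of these genes were first looked at for the sequence that NF-kB dimers bind. RefSeq promoter windows were at hand for 8 of the 10 genes, all but RELB and NFKBIE. The 250 bases before each start were searched on both strands for the kB consensus, a motif of 10 bases, and a window counted once however many matches, overlapping ones included, it held. A match was found for 7 of the 8 genes and in 8 of their 11 windows, against 6.28% of the 27305 genes with a window and 5.21% of all 35116 windows. The TNF window held no match to these letters. The match nearest to a start is shown for each of these 7 genes. The genes were picked for their place in the pathway, so their share of matches is a description and not a test. Each run reads 5′ to 3′ on the strand of the gene, the capitals mark the match, and the coordinates are those of the run in GRCh37, the build of the study:
NFKB1, chr4:103422457-103422486: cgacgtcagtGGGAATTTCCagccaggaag
NFKB2, chr10:104155431-104155460: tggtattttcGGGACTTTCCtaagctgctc
REL, chr2:61108653-61108682: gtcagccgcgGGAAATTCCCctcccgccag
NFKBIA, chr14:35874017-35874046: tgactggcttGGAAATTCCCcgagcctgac
TNFAIP3, chr6:138188331-138188360: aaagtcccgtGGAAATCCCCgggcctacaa
BIRC3, chr11:102188070-102188099: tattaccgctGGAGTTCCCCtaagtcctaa
IL6, chr7:22766736-22766765: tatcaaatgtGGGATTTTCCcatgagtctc
In the runs of NFKB1, NFKB2 and IL6 the match lies on the strand of the gene, and in those of REL, NFKBIA, TNFAIP3 and BIRC3 it is read on the other strand. From its first base to the RefSeq start the distance was 49 bases for NFKB1, 21 for the third start of NFKB2, 46 for REL, 81 for NFKBIA, 55 for TNFAIP3, 135 for BIRC3 and 73 for IL6. By the GENCODE annotation of GRCh37, the matches of NFKB1, NFKBIA, TNFAIP3 and BIRC3 lay before the gene, those of REL and NFKB2 in an exon of a longer transcript, and that of IL6 in an intron of one. A match describes the letters and shows no binding.

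The inhibitor and survival genes and the subunit genes NFKB1, NFKB2 and RELB stood above both DMSO libraries in every treated library. Their log2 fold changes against DMSO were each below 1. With the combination, both libraries lay above both DMSO libraries for 10 of 10 genes, beside 26.0% of all genes tested. Under palbociclib this held for 8 of 10 (TNF and IL6 did not), beside 26.5% of all genes. Under TCP it again held for 8 of 10 (REL and IL6 did not), beside 12.4%. The median log2 fold change over the 10 genes was 0.39 with TCP, 0.38 with palbociclib and 0.76 with both.

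A gene was called when its adjusted p was below 0.01 and its log2 fold change was 1 or more in size. No member was called in any of the 6 comparisons (limma, Benjamini-Hochberg over all genes tested). That rule called 0.0565% of all genes for TCP against DMSO, 9.1% for palbociclib and 13.7% for the combination. It called 0.502% for the combination against palbociclib, 12.2% against TCP and 0% for the interaction of the drugs. An unadjusted p below 0.05 was found for 7 of the 10 members with TCP (beside 8.77% of all genes), for 5 with palbociclib (beside 53.3%) and for 7 with the combination (beside 59.2%). It was found for 4 when the combination was set against palbociclib (beside 17.5%), 4 against TCP (beside 57.2%) and 2 for the interaction (beside 6.39%).

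With no minimum fold, a rule added after the values were seen and the one meant below by "passed" and "rose", 3 of 10 members rose under palbociclib (NFKB2, RELB and BIRC3), beside 9.29% of all genes. Under the combination 5 of 10 rose (NFKB2, RELB, NFKBIA, TNFAIP3 and BIRC3), beside 10.8%. For TCP no member passed, beside 0.0777% of all genes that passed and were higher. The combination differed from TCP in 1 member, REL (beside 10.7%), from palbociclib in 0 (beside 0.558%), and the interaction passed in 0 (beside 0%). With the replicate number as a block these counts became 4 for palbociclib (beside 12.5% of all genes that passed and were higher in that fit), 7 for the combination (beside 13.8%) and 4 for the combination against TCP (beside 13.7%), and stayed at 0 for the other comparisons.

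These counts moved when a library was left out, and a group left with 1 library was assumed to vary like the others. Calls over all genes against DMSO moved too, for palbociclib and for the combination. They were fewer without any DMSO, palbociclib or combination library and more without either TCP library. The moves are thus not particular to the members. For palbociclib, 1 member passed without DMSO replicate 1 or without palbociclib replicate 1, and 0 without DMSO replicate 2 or without palbociclib replicate 2. The count was 2 without either combination library and 4 without either TCP library. For the combination, 2 passed without DMSO replicate 1 and 3 without DMSO replicate 2, without combination replicate 1 or without combination replicate 2, while 6 passed without either TCP library. NFKB2 and RELB passed for the combination in 8 of the 8 fits that left out 1 library, and NFKBIA, TNFAIP3 and BIRC3 in 5 of 8 each. For palbociclib, NFKB2 passed in 6 of these 8 fits, BIRC3 in 4 and RELB in 2. For 2 libraries against 2, an exact two-sided permutation test of a single gene cannot go below p = 0.333.

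**Figure D1:**
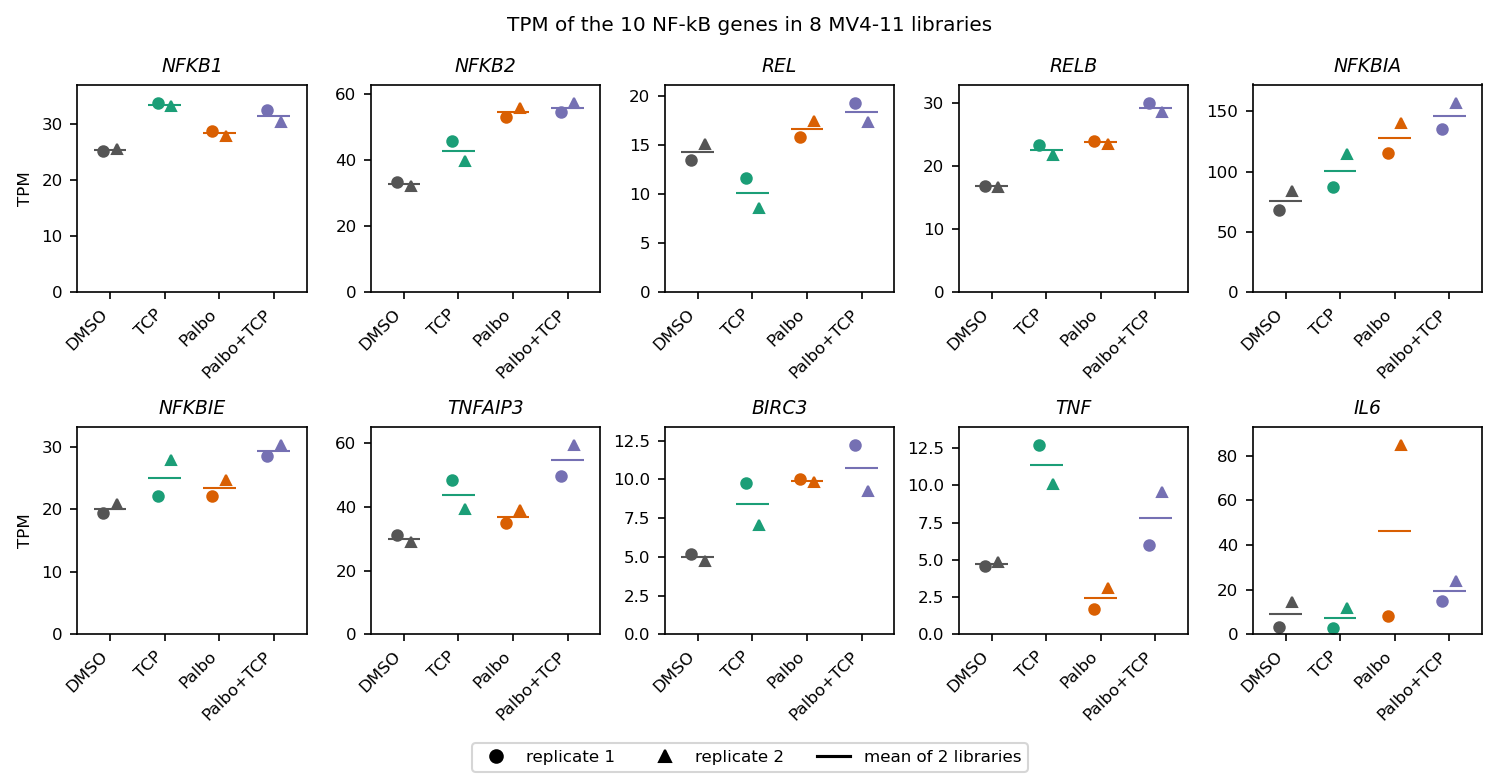
TPM of the 10 genes (vertical axes, linear and from 0) in each of the 8 libraries, with circles for replicate 1, triangles for replicate 2 and a bar at the mean of the 2 libraries of a group. NFKBIA is the highest gene in every group, TNF is the gene that is lowest under palbociclib, and the triangle of IL6 under palbociclib stands at 84.6 TPM above the circle at 8.08 TPM.

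NFKB1 (chromosome 4, 103422487 to 103538459) encodes the precursor of p50, the DNA-binding partner of RELA. It stood at 25.2 and 25.5 TPM in the 2 DMSO libraries, 33.7 and 33.2 TPM with TCP, 28.9 and 27.8 TPM with palbociclib, and 32.6 and 30.3 TPM with the combination. Each treated library was higher than both DMSO libraries, and the TCP libraries were the highest of the 8. The log2 fold change was 0.38 (SE 0.08, adjusted p = 0.144) under TCP, 0.15 (SE 0.08, adjusted p = 0.153) under palbociclib and 0.30 (SE 0.08, adjusted p = 0.0164) under the combination by limma. In the fit with the replicate block the combination passed for NFKB1 (adjusted p = 0.00858). The combination lay 0.09 below TCP (log2 fold change -0.09, SE 0.08, adjusted p = 0.394), and this sign turned under quantile normalization (0.08) and median-ratio scaling (0.09).

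NFKB2 (chromosome 10, 104153867 to 104162281) encodes p100, which is both an inhibitor of the pathway and the precursor of the non-canonical subunit p52. Its DMSO libraries held 33.3 and 32.2 TPM, the TCP libraries 46.0 and 39.9 TPM, the palbociclib libraries 53.2 and 55.9 TPM, and the combination libraries 54.6 and 57.2 TPM. The groups with palbociclib overlapped each other and lay above both other groups. NFKB2 rose by 0.72 (SE 0.09, adjusted p = 0.00111) under palbociclib and by 0.75 (SE 0.09, adjusted p = 0.000604) under the combination, and its log2 fold change under TCP was 0.38 (SE 0.09, adjusted p = 0.223). Between the combination and palbociclib the difference in NFKB2 was 0.03 (SE 0.09, adjusted p = 0.890). The combination exceeded TCP by 0.38 (SE 0.09, adjusted p = 0.0126), which passed with the replicate block (adjusted p = 0.00969).

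RELB (chromosome 19, 45504719 to 45541450) encodes the transactivating partner of p52. It went from 16.9 and 16.7 TPM in DMSO to 23.5 and 21.7 TPM with TCP, 24.0 and 23.5 TPM with palbociclib, and 30.0 and 28.6 TPM with the combination. The single-drug groups lay side by side, and the combination libraries lay above all others. RELB rose by 0.47 (SE 0.08, adjusted p = 0.00398) under palbociclib and by 0.76 (SE 0.08, adjusted p = 0.000386) under the combination, with 0.40 (SE 0.08, adjusted p = 0.147) under TCP. The palbociclib result of RELB did not pass in the fit of only the groups compared, and passed only without 1 or the other TCP library among the fits that left out a library. Against the single drugs, the combination differed by 0.29 (SE 0.08, adjusted p = 0.129) from palbociclib and by 0.36 (SE 0.08, adjusted p = 0.0102) from TCP, the second of which passed for RELB with the replicate block (adjusted p = 0.00467).

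REL (chromosome 2, 61108626 to 61158747) encodes c-Rel, a canonical subunit of lymphoid and myeloid cells. Of the 4 subunit genes among the members it was the 1 that stood below DMSO with TCP, at 11.7 and 8.54 TPM against 13.4 and 15.1 TPM. With palbociclib its libraries held 15.8 and 17.4 TPM, and with the combination 19.2 and 17.4 TPM. The TCP libraries did not overlap any other group, while those of palbociclib and the combination overlapped. The log2 fold change of REL under TCP was -0.47 (SE 0.15, adjusted p = 0.390), and the combination exceeded TCP by 0.81 (SE 0.15, adjusted p = 0.00443), which passed. Without TCP replicate 2 the first was -0.27. The second was lost for REL without TCP replicate 2, combination replicate 1 or combination replicate 2, in the fit of only those groups and with no filter on low values. In the annotation REL shares 5702 exon bases with another gene on its strand, which has no row in the expression table. How reads in these shared bases were counted is not known.

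RELA, the main transactivating subunit of the canonical arm and not one of the 10 genes, served as the reference among the subunits. It stood between 75.5 and 82.8 TPM in all 8 libraries, and its log2 fold change was -0.05 with TCP, -0.06 with palbociclib and -0.04 with the combination (SE 0.08 each). Relative to the median gene these values for RELA were -0.01, 0.10 and 0.18. Of the summed TPM of the 5 subunit genes, RELA took 47.4% and 48.0% in DMSO, 39.8% and 44.2% with TCP, 38.6% and 38.9% with palbociclib, and 35.6% and 38.3% with the combination. NFKB2 and RELB together took 29.7% and 28.4% in DMSO, 36.4% and 33.3% with TCP, 38.9% and 38.9% with palbociclib, and 39.9% and 39.7% with the combination. The mRNA pool of the subunits thus held a larger part of the non-canonical pair in each treated library than in either DMSO library, and the ratio of NFKB2 to NFKB1 TPM was 1.32 and 1.26 in DMSO, 1.36 and 1.20 with TCP, 1.84 and 2.01 with palbociclib, and 1.68 and 1.89 with the combination. A scaling factor per library leaves these shares and ratios as they are.

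**Figure D2:**
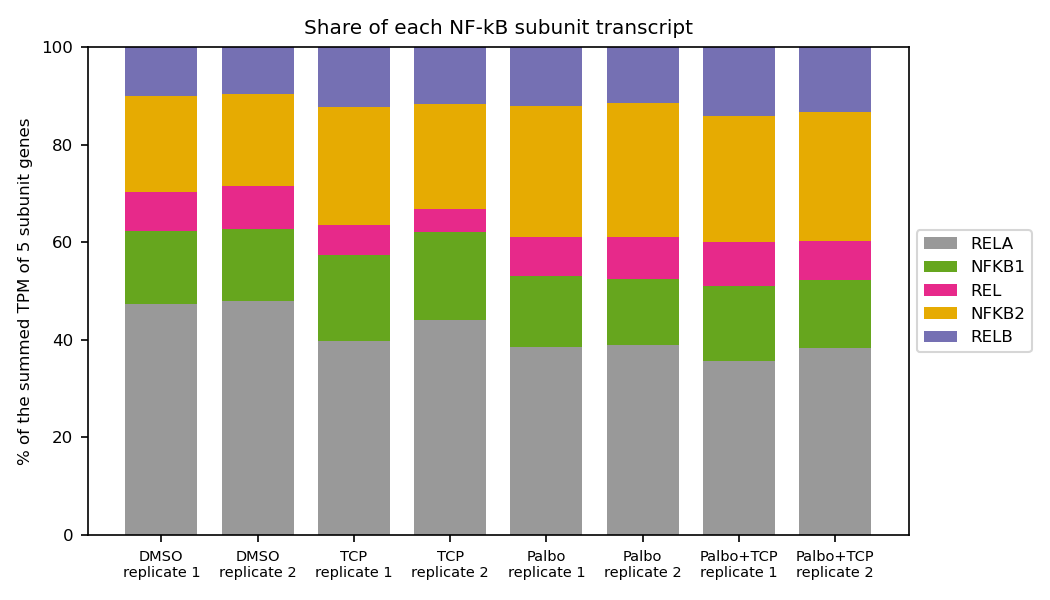
Share of each of the 5 NF-kB subunit genes in their summed TPM (vertical axis, %), 1 stacked bar per library. RELA takes 47.4% and 48.0% in DMSO and 35.6% and 38.3% with the combination, where the segments of NFKB2 and RELB are wider, and the REL segment is narrowest in the TCP libraries (6.11% and 4.62%).

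NFKBIA (chromosome 14, 35870285 to 35873955) encodes IkBα, the inhibitor that is degraded and resynthesised with each pulse of the canonical arm. It was the highest of the 10 genes in every group, at 68.4 and 83.6 TPM in DMSO, 87.0 and 115 TPM with TCP, 116 and 139.9 TPM with palbociclib, and 136 and 157 TPM with the combination. Within each group replicate 2 was higher, and no treated library overlapped DMSO. NFKBIA rose by 0.94 (SE 0.17, adjusted p = 0.00354) under the combination, with 0.74 (SE 0.17, adjusted p = 0.0115) under palbociclib and 0.40 (SE 0.17, adjusted p = 0.583) under TCP, the last being 0.20 without TCP replicate 2 and 0.25 without DMSO replicate 1. With the replicate block the SE fell to 0.06, and palbociclib (adjusted p = 0.000295) and the combination against TCP (0.54, adjusted p = 0.000700) passed as well for NFKBIA. Per RELA transcript, the TPM of NFKBIA were 0.852 and 1.01 in DMSO, 1.15 and 1.40 with TCP, 1.51 and 1.76 with palbociclib, and 1.80 and 1.89 with the combination.

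NFKBIE (chromosome 6, 44225903 to 44233525) encodes IkBε, a slower inhibitor of the same family. Its values were 19.4 and 20.8 TPM in DMSO, 22.1 and 27.8 TPM with TCP, 22.2 and 24.6 TPM with palbociclib, and 28.5 and 30.2 TPM with the combination. The combination libraries lay above all others, and the single-drug groups overlapped each other. The log2 fold change of NFKBIE under the combination was 0.52 (SE 0.12, adjusted p = 0.0110), just outside the threshold, and passed with the replicate block (adjusted p = 0.00220). Under TCP it was 0.29 (SE 0.12, adjusted p = 0.578; 0.13 without TCP replicate 2 and 0.45 without TCP replicate 1) and under palbociclib 0.21 (SE 0.12, adjusted p = 0.211).

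TNFAIP3 (chromosome 6, 138188351 to 138204451) encodes A20, a ubiquitin-editing enzyme that shuts off signalling above the IkB kinase. It held 31.1 and 29.0 TPM in DMSO, 48.4 and 39.3 TPM with TCP, 34.9 and 39.2 TPM with palbociclib, and 49.9 and 59.4 TPM with the combination. No treated library reached down to DMSO. The TCP libraries lay above the palbociclib ones, though in replicate 2 the values were nearly equal (39.3 and 39.2 TPM). TNFAIP3 rose by 0.84 (SE 0.13, adjusted p = 0.00198) under the combination, with 0.52 (SE 0.13, adjusted p = 0.249) under TCP and 0.29 (SE 0.13, adjusted p = 0.117) under palbociclib. The combination lay 0.55 (SE 0.13, adjusted p = 0.0820) above palbociclib for TNFAIP3. The summed TPM of NFKBIA, NFKBIE and TNFAIP3 over that of the 5 subunit genes was 0.703 and 0.775 in DMSO, 0.826 and 0.983 with TCP, 0.871 and 0.998 with palbociclib, and 1.01 and 1.14 with the combination.

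BIRC3 (chromosome 11, 102188215 to 102210134) encodes cIAP2, a ubiquitin ligase that protects cells from TNF-induced death and limits the non-canonical arm. It stood at 5.21 and 4.74 TPM in DMSO, 9.77 and 7.04 TPM with TCP, 10.0 and 9.81 TPM with palbociclib, and 12.2 and 9.27 TPM with the combination. All treated libraries lay above DMSO, and the combination overlapped both single drugs. BIRC3 rose by 0.87 (SE 0.18, adjusted p = 0.00759) under palbociclib and by 0.96 (SE 0.18, adjusted p = 0.00392) under the combination, and had 0.64 (SE 0.18, adjusted p = 0.302) under TCP. With no filter on low values neither result of BIRC3 passed.

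NFKBIA, TNFAIP3 and BIRC3 lay just under the fold of the call rule, and how libraries were scaled decided on which side. Under median-ratio scaling their log2 fold changes for the combination were 1.17, 1.06 and 1.17, and under quantile normalization 1.09, 1.04 and 1.10, so that 3 of 10 members were called under each, beside 12.6% of all genes under each. BIRC3 was also called for palbociclib under median-ratio scaling (1.01, beside 8.69% of all genes) and for the combination with a pseudocount of 0.1 (1.08, beside 15.4%). The share of all called genes that were higher moved likewise, from 42.8% to 56.1% (quantile) and 61.9% (median-ratio) for the combination, and from 49.9% to 60.9% and 66.4% for palbociclib.

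**Figure D3:**
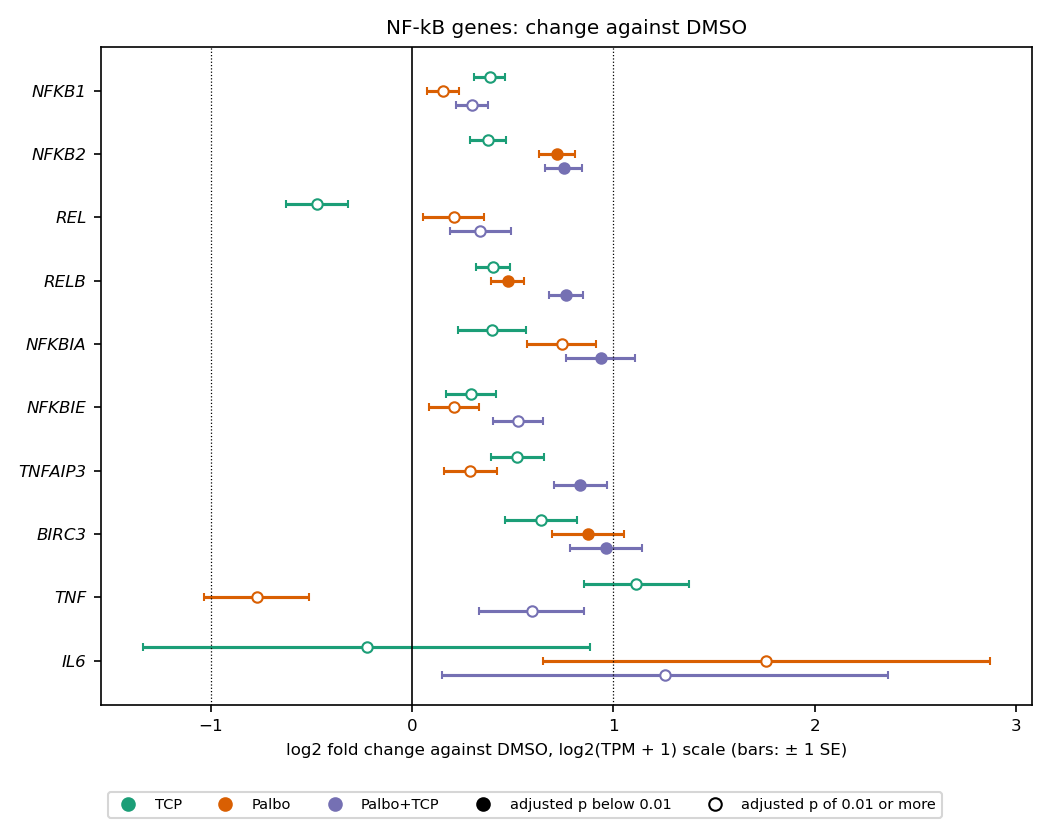
Log2 fold change against DMSO on the log2(TPM + 1) scale (horizontal axis) for the 10 genes, with bars of 1 SE, filled points where the adjusted p of limma was below 0.01 and dotted lines at a log2 fold change of 1 and -1. NFKB2, RELB, NFKBIA, TNFAIP3 and BIRC3 are filled under the combination, TNF has its TCP and palbociclib points on opposite sides of 0, and the bars of IL6 are the widest.

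TNF (chromosome 6, 31543342 to 31546113) encodes the cytokine that is both a product and an activator of NF-kB. Its single-drug libraries lay on opposite sides of DMSO with no overlap, TCP above and palbociclib below, and REL had the reverse order. TNF stood at 4.56 and 4.84 TPM in DMSO, 12.7 and 10.1 TPM with TCP, 1.72 and 3.09 TPM with palbociclib, and 6.01 and 9.57 TPM with the combination. The log2 fold change of TNF was 1.11 (SE 0.26, adjusted p = 0.201) under TCP, -0.77 (SE 0.26, adjusted p = 0.0474) under palbociclib and 0.60 (SE 0.26, adjusted p = 0.0935) under the combination. That of the combination for TNF was 0.30 without combination replicate 2, and that of palbociclib was -0.48 without palbociclib replicate 1. The combination lay 1.37 (SE 0.26, adjusted p = 0.0412) above palbociclib, with the same difference of 1.37 within replicate 1 and within replicate 2, and would be called at an adjusted p below 0.05. For TNF the interaction of the drugs was 0.26 (SE 0.37, adjusted p = 0.990), a difference between the TCP effects with and without palbociclib that did not pass.

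IL6 (chromosome 7, 22765503 to 22771621) encodes a secreted inflammatory cytokine, and the 2 libraries of each group lay far apart. In replicate 1 it stood at 3.39 TPM with DMSO, 2.92 TPM with TCP, 8.08 TPM with palbociclib and 14.7 TPM with the combination. In replicate 2 it stood at 14.5, 11.7, 84.6 and 23.7 TPM in the same order. Replicate 2 was higher in each of the 4 groups, and the highest group was the combination in replicate 1 and palbociclib in replicate 2. The log2 fold change of IL6 was -0.23 (SE 1.11, adjusted p = 0.973) under TCP, 1.76 (SE 1.11, adjusted p = 0.234) under palbociclib and 1.26 (SE 1.11, adjusted p = 0.373) under the combination. With 1 library left out, that for the combination ranged from 0.35 (without DMSO replicate 1) to 2.16 (without DMSO replicate 2). Without palbociclib replicate 2, that for palbociclib was 0.14, and the combination lay 1.12 above palbociclib instead of 0.50 below it.

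Between the replicates, taken as a term of the blocked fit, IL6 was 1.85 higher in replicate 2 on the log2 scale (SE 0.37, adjusted p = 0.0612), and with that term the SE of the drug comparisons of IL6 fell to 0.53 and the adjusted p to 0.0299 for palbociclib and 0.0802 for the combination. NFKBIA was 0.29 higher in replicate 2 (SE 0.05, adjusted p = 0.0475). No gene of all those tested was called between the replicates (0%), although 3838 had an unadjusted p below 0.05.

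Some transcripts of stromal cells, COL1A1, COL1A2 and FN1 among them, moved with IL6. COL1A1, which encodes a chain of type I collagen, stood at 0.185, 0.151, 1.32 and 2.29 TPM in replicate 1 (DMSO, TCP, palbociclib and combination) and at 1.23, 1.79, 22.2 and 3.78 TPM in replicate 2. FN1, which encodes fibronectin, stood at 1.22, 1.28, 2.52 and 4.84 TPM and at 3.14, 2.68, 23.4 and 7.04 TPM. Both had the order of IL6 at the top, with the combination highest in replicate 1 and palbociclib in replicate 2, as did COL1A2. The markers TAGLN and PDGFRB did not. Their combination libraries, at 17.0 to 17.7 TPM and 0.743 to 0.802 TPM, lay above those of all other groups. The summed TPM of the 16 stromal markers was 24.5 and 34.2 in DMSO, 34.7 and 39.3 with TCP, 33.7 and 161 with palbociclib, and 47.0 and 62.2 with the combination, and 12 of the 16 were higher in replicate 2 in each of the 4 groups. Of the 16, 2 were at 0 in replicate 1 of DMSO and of TCP, 1 was at 0 in replicate 2 of each, and 0 in the other libraries. The part of this RNA in the values of IL6 was not tested. In the annotation IL6 also shares 428 exon bases with the antisense gene IL6-AS1, which has no row in the expression table. It shares 46 with STEAP1B, which has a row. The strand setting of the counting is not given in the sources used here.

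**Figure D4:**
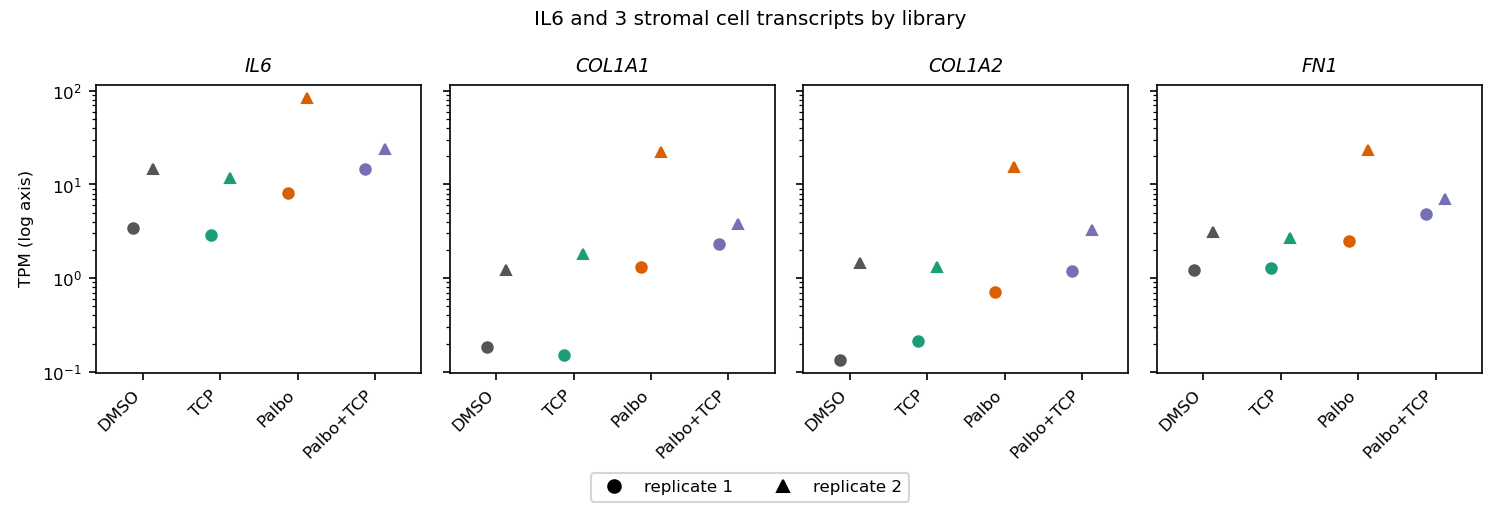
TPM (vertical axis, logarithmic and shared) of IL6, COL1A1, COL1A2 and FN1 in the 8 libraries, with circles for replicate 1 and triangles for replicate 2. Each of the 4 genes is higher in replicate 2 of every group, and each has its highest library in palbociclib replicate 2, where IL6 stands at 84.6 TPM and FN1 at 23.4 TPM.

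In DMSO the order of levels was NFKBIA (76.0 TPM), NFKB2 (32.8), TNFAIP3 (30.1), NFKB1 (25.4), NFKBIE (20.1), RELB (16.8), REL (14.3), IL6 (8.93), BIRC3 (4.97) and TNF (4.70), as mean TPM of 2 libraries. Neighbours from NFKBIA to REL did not overlap between libraries, while IL6 overlapped both REL and BIRC3, and BIRC3 overlapped TNF. With the combination NFKBIA (146 TPM) again led and TNF (7.79 TPM) again came last. There NFKB2 overlapped TNFAIP3, NFKBIE overlapped RELB, IL6 overlapped REL, and BIRC3 overlapped TNF.

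The genes most like each member were sought among all genes tested, for the 6 members that spanned over 1 on the log2 scale, by the root mean square difference of centred log2(TPM + 1) over the 8 libraries. For IL6 they were GREM1 (0.19), CLDN11 (0.24) and CYR61 (0.25). GREM1, which encodes a secreted antagonist of bone morphogenetic proteins, stood at 1.50, 1.42, 3.53 and 7.12 TPM in replicate 1 and 10.5, 6.91, 56.5 and 11.5 TPM in replicate 2, with the same highest groups as IL6. For TNF, TBC1D4 (0.27), EPHB3 (0.28) and STS (0.29) came nearest, and TBC1D4, a regulator of glucose transporter traffic, stood at 3.43 and 2.92 TPM with TCP and at 0.178 and 0.160 TPM with palbociclib. NFKBIA had NFATC2 (0.08), a transcription factor of calcium signalling, FRAT1 (0.09) and C1orf122 (0.11). TNFAIP3 had ZFYVE28 (0.08), SH3BP5 (0.10) and IFNGR2 (0.11), the last a chain of the interferon gamma receptor. REL had LNPEP (0.09), an aminopeptidase, MIR3605 (0.11) and PRRT3 (0.11). The nearest of BIRC3 were IZUMO4 (0.15), the adhesion receptor gene ICAM1 (0.15) and the member NFKB2 (0.16).

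The rest of the pathway, 70 genes in 5 lists, of which 65 were tested, included changes larger than those of the members, in receptors, negative regulators and target genes. Called higher were 4.54% of all genes under palbociclib and 5.87% under the combination, and called lower 4.56% and 7.82%. None of these 65 genes was called under TCP, where 0.0565% of all genes were called higher.

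Among the 7 receptors tested of 9, 4 were called higher and 0 lower under palbociclib, and again 4 and 0 under the combination, and the median difference of the 7 was 1.45 and 1.43 on the log2 scale. TNFRSF1B, the inducible TNF receptor, went from 80.1 and 83.8 TPM in DMSO to 226 and 246 TPM with palbociclib and 261 and 272 TPM with the combination, and stood at 76.2 and 89.0 TPM with TCP. CD40, a receptor that drives the non-canonical arm, rose by 2.14 (SE 0.30, adjusted p = 0.00162) under palbociclib and 2.44 (SE 0.30, adjusted p = 0.000633) under the combination. The toll-like receptor genes TLR2 (1.45 and 1.43) and TLR4 (1.92 and 1.66) rose under the same 2 treatments. TLR4, the receptor of bacterial lipopolysaccharide, fell by 0.91 (SE 0.08, adjusted p = 0.00956) under TCP, from 15.4 and 15.8 TPM to 7.48 and 8.15 TPM.

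Among the 7 other subunit and IkB genes, 1 was called under each palbociclib treatment. NFKBIZ, which encodes the nuclear cofactor IkBζ, stood at 9.39 and 12.6 TPM in DMSO, 16.6 and 22.2 TPM with TCP, 22.7 and 37.6 TPM with palbociclib, and 40.4 and 57.2 TPM with the combination. NFKBIZ rose by 1.35 (SE 0.28, adjusted p = 0.00824) and 2.05 (SE 0.28, adjusted p = 0.00110) under palbociclib and the combination, and replicate 2 was the higher library in each group. Of the 17 adaptors and kinases tested of 18, 0 were called in either direction under any treatment against DMSO. With no minimum fold 0 of these 17 were higher and 2 lower under palbociclib, and 1 higher and 1 lower under the combination, while 18% and 25.1% of all genes were lower by that rule. With the replicate block 0 were higher under palbociclib (beside 12.5% of all genes in that fit) and 2 under the combination (beside 13.8%). In that fit 4 were lower under each treatment. The share of all genes that were lower there was not computed, so the 4 cannot be set against it.

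Of the 12 negative regulators beyond the members, 3 were called higher under palbociclib and 4 under the combination, and 0 lower. TNIP3, a partner of A20, stood at 0.177 and 0.593 TPM in DMSO, 5.66 and 6.71 TPM with palbociclib, and 18.7 and 21.1 TPM with the combination, a log2 fold change of 3.93 (SE 0.21, adjusted p = 3.43e-05) for the last. TNIP1, another A20 partner, rose by 1.34 (SE 0.09) under the combination, IRAK3, which restrains toll-like receptor signalling, by 1.75 (SE 0.10), and ZC3H12A, an endonuclease that cleaves cytokine mRNA, by 1.24 (SE 0.12). Under TCP the log2 fold changes of TNIP3, IRAK3, TNIP1 and ZC3H12A lay between 0.32 and 0.44 and none passed.

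Of the 22 other target genes tested of 24, 6 were called higher and 1 lower under palbociclib, and 8 higher and 2 lower under the combination. The log2 fold change was above 0 for 18 of the 22 under each of these treatments. Among those that went down, mean IRF1 was 57.0 TPM in DMSO and 28.0 TPM both with palbociclib and with the combination. Mean CD83 was 7.66 TPM in DMSO, 4.57 TPM with palbociclib and 3.12 TPM with the combination. With the replicate block 7 and 9 of these genes were called higher, and the counts of called receptors, other subunits and negative regulators were as without it. CCL2, a monocyte chemokine, went from 9.28 and 10.3 TPM in DMSO to 26.7 and 21.8 TPM with TCP, 120.0 and 199 TPM with palbociclib and 336 and 498 TPM with the combination. CCL2 rose by 3.85 (SE 0.27, adjusted p = 0.000139) under palbociclib and 5.25 (SE 0.27, adjusted p = 2.88e-05) under the combination. SOD2, mitochondrial superoxide dismutase, went from 117 and 132 TPM to 701 and 685 TPM with the combination. BCL2A1, a BCL2 family survival gene, rose by 2.46 (SE 0.48, adjusted p = 0.00486) and TNFAIP6, a secreted hyaluronan-binding protein gene, by 2.45 (SE 0.23, adjusted p = 0.000230) under the combination.

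**Figure D5:**
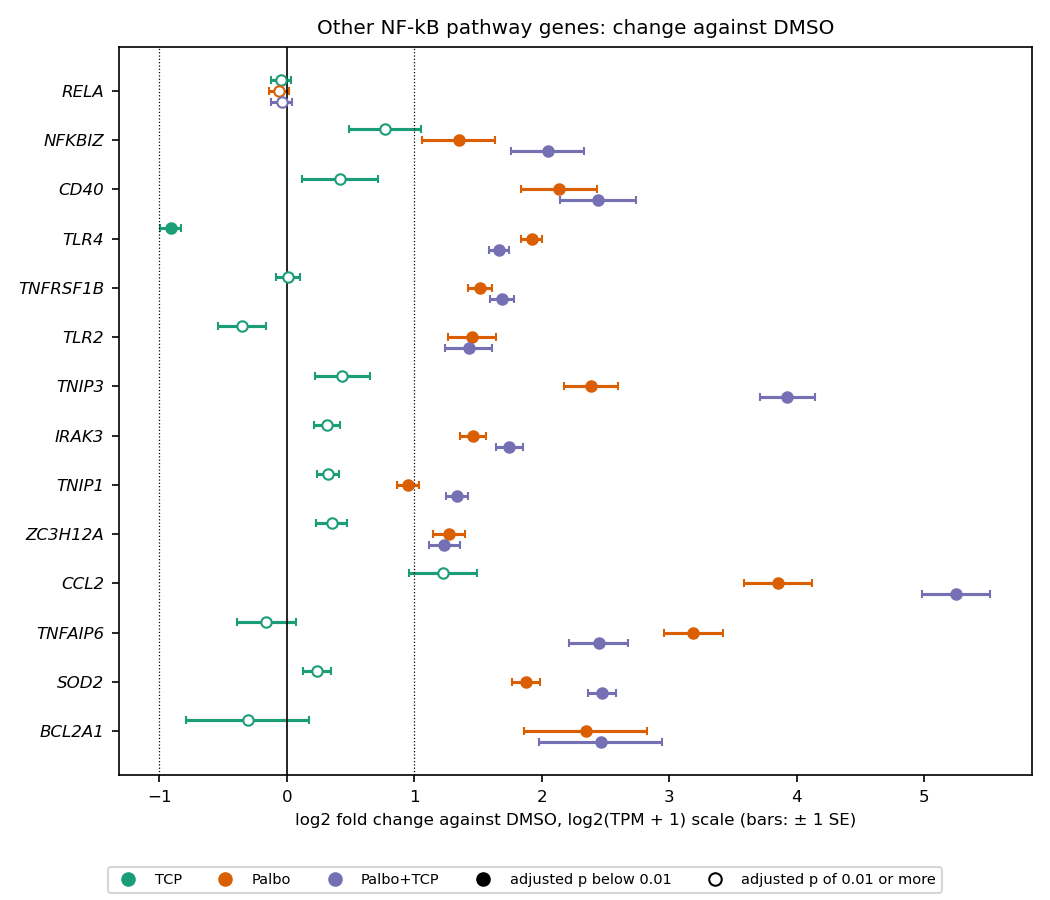
Log2 fold change against DMSO on the log2(TPM + 1) scale (horizontal axis) for RELA and 13 other pathway genes, with bars of 1 SE, filled points where the adjusted p of limma was below 0.01 and dotted lines at a log2 fold change of 1 and -1. RELA lies at 0 under all treatments within 1 SE, the 13 others are filled under palbociclib and the combination, and TLR4 is the 1 gene filled under TCP, at -0.91.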

How the data were processed

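RNA of MV4-11 cells was measured by RNA-seq in 8 libraries, 2 in each of 4 groups taken from the labels. The deposited values are TPM. The authors mapped reads to hg19 (GRCh37) with Subread, counted them per gene with featureCounts 1.6.4 and converted the counts to TPM (the submitters' processing notes also name SAMtools 1.9). The annotation, gene lengths and strand setting of the counting are not given in the sources used here. Differences between genes that overlap, or in what a few abundant genes take of each library, can therefore move single values.

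The values were taken to log2 after adding a pseudocount of 1, and limma (3.58.1, under R 4.3.3) fitted the mean of each group jointly in the 8 libraries, which leaves 4 residual degrees of freedom, with variances moderated along a mean-variance trend. The 14151 genes at 1 TPM or more in 2 or more libraries were tested, and p-values were adjusted over all of them by the Benjamini-Hochberg method. A call needed an adjusted p below 0.01 and a log2 fold change of 1 or more in size. The script was tested on simulated data. Coordinates come from GENCODE on GRCh37, which may not be the annotation the authors counted on. Promoter windows come from RefSeq on GRCh38.p14, and the runs printed were placed on GRCh37 by exact match.

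The members, lists, tests and alternatives were chosen with earlier results of these data known. The genes named are the 10 members, RELA, up to 4 called genes of each other pathway list with the largest change against DMSO, 3 stromal genes beside IL6, and the 3 genes nearest to each member that spanned over 1 on the log2 scale. Also named are IRF1 and CD83, target genes that were lower, and the stromal markers COL6A1, TAGLN and PDGFRB. After removal of the group means, libraries with the same number correlated across genes by 0.169 to 0.491 over the 6 pairs of groups. On these values alone, the replicate numbers were treated as pairing the libraries in the fit with the replicate block. The main fit held no such term. Alternatives were a pseudocount of 0.1, no filter, a floor of 5 TPM on the mean, quantile normalization, median-ratio scaling, a replicate block, a separate fit of each comparison, no trend, an adjusted p below 0.05 and each library left out in turn. A rule with no minimum fold and the replicate term were added after the data were seen.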

Additional observations from a re-analysis of the deposited data

How the results depend on the processing

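Under the alternatives, the count of members called for the combination against DMSO was 0 as reported, 1 with a pseudocount of 0.1, 3 with quantile normalization and 3 with median-ratio scaling, and 0 to 1 with a library left out. For palbociclib against DMSO it was 1 with median-ratio scaling, for the combination against palbociclib 1 at an adjusted p below 0.05, and for the combination against TCP 0 to 1 with a library left out. Members past the adjusted p with no minimum fold were 5 for palbociclib at an adjusted p below 0.05 and 0 to 4 with a library left out, 2 to 6 for the combination with a library left out, and 1 for the combination against palbociclib at an adjusted p below 0.05. For the combination against TCP this count was 1 as reported, 0 with no filter, 2 with a mean of at least 5 TPM, 3 with quantile normalization, 3 with median-ratio scaling, 4 with the replicate block, 0 in the fit of only the groups compared, 4 at an adjusted p below 0.05 and 0 to 2 with a library left out.

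With no minimum fold, NFKB1 and NFKBIE also passed for the combination against DMSO with quantile normalization, median-ratio scaling and an adjusted p below 0.05. NFKBIE also passed with a mean of at least 5 TPM and in the fit of only the groups compared, and BIRC3 was lost with no filter. For palbociclib, NFKBIA was gained with quantile normalization, median-ratio scaling and a mean of at least 5 TPM. The sign of NFKB1 for the combination against TCP (-0.09) turned with quantile normalization (0.078) and median-ratio scaling (0.094). With a library left out, IL6 under TCP ranged from -1.13 to 0.68, and for the combination against palbociclib from -2.12 to 1.12, NFKB2 from -0.00071 to 0.070 and BIRC3 from -0.089 to 0.27. Over all genes, the calls for palbociclib and for the combination against DMSO also moved under these alternatives. The cause of the moves was not tested. The replicate block changed no call of members beyond those given beside the results. Depth is unknown, so no interval from read counts can be given.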

Other observations

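Inflammatory target genes beyond IL6 also stood higher in replicate 2. Of the 24 other target genes, 11 were higher in replicate 2 than in replicate 1 in each of the 4 groups (CXCL8, CXCL1, CXCL2, CXCL3, CCL20, IL1B, PTGS2, TNFAIP8, IER3, PLAU and BCL2L1), while 14.9% of all genes tested were. IL1B, which encodes interleukin-1β, stood at 2.84, 6.15, 18.3 and 61.9 TPM in replicate 1 (DMSO, TCP, palbociclib and combination) and at 26.3, 20.3, 94.2 and 69.2 TPM in replicate 2. CXCL8, a neutrophil chemokine gene, stood at 25.8, 27.2, 81.8 and 89.5 TPM in replicate 1 and at 93.9, 54.0, 299 and 135 TPM in replicate 2. Both were highest with the combination in replicate 1 and with palbociclib in replicate 2. These genes were named after their values were seen, and none of the 11 but PLAU was called in a comparison with DMSO. Of the 11, 8 had their highest value in palbociclib replicate 2, the library in which 14 of the 16 stromal markers were highest, and PLAU, TNFAIP8 and BCL2L1 in replicate 2 of the combination. The part of stromal RNA in these values was not tested.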
